A study of Mus musculus with 4 samples.

Results

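The cells described here are islet barcodes that carry large amounts of both glucagon (Gcg) and somatostatin (Sst) message. They were chosen by measured values in all 4 single-cell libraries of the series: at least 500 genes detected, at most 20% of unique molecular identifiers (UMIs, counted molecules) on mitochondrial genes, at least 3% of UMIs on Gcg, at least 3% on Sst, and less than 5% on the insulin genes Ins1 and Ins2 together. The rule kept 765 of the 43205 barcodes that passed the gene and mitochondrial limits, out of 45709 deposited. A barcode marks the contents of a microwell, so it can hold the RNA of more than 1 cell, and the word cell below stands for a barcode.

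In the islet, alpha cells secrete glucagon, which raises blood glucose, and delta cells secrete somatostatin, which restrains both insulin and glucagon release. Among their transcription factors, alpha cells carry the Iroquois factors Irx1 and Irx2, and the delta identity is held by the homeodomain factor Hhex. Delta cells send processes to neighbouring alpha and beta cells, and the islet cell types adhere firmly to each other until they are dissociated.

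All 4 libraries came from pancreatic islets of male mice aged 8 weeks, made with the SeekOne MM kit, which captures the 3′ ends of transcripts from cells settled into microwells. The Cre-positive library came from mice with floxed Tet2 and Tet3, which encode enzymes that oxidise methylated cytosine, and a Pdx1-driven Cre recombinase. Pdx1 is active in the pancreatic progenitors that give rise to all islet endocrine cells, so the driver does not confine the deletion to beta cells. The Cre-negative library came from mice with the same floxed alleles and no Cre. The IHG library came from offspring of mothers in an intrauterine hyperglycaemia (IHG) model, and the control offspring library from offspring of control mothers. Islets were cultured and trypsinised, and debris and dead cells removed, before loading. The labels give neither the strain nor how many mice went into a library. With 1 library per group there was no replicate, so no difference was tested. Intervals below are exact and at 95%, and they cover counting error only.

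The libraries held between 52489846 and 109110492 UMIs on 6421 to 16459 barcodes, and the kept cells had a median of 5505.5 to 7831.5 UMIs. Between 51 and 220 kept barcode sequences occurred in both libraries of a pair, and 0 of the 765 cells rich in both hormones had a sequence that was also rich in both in another library. In these cells Tet2 had 208 UMIs, or 27.0 CPM (UMIs scaled to the same total in every class and library), in the Cre-positive library and 1 UMI, or 15.0 CPM, in the Cre-negative library, and Tet3 had 101 UMIs in the Cre-positive and 0 in the Cre-negative library. The tables do not give positions within a transcript, so these counts are no check of the deletion.

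Cells rich in both hormones were frequent in the Cre-positive library and almost missing from the Cre-negative one. The Cre-positive library had 528 of 9587 kept cells, 5.51% (5.06 to 5.98%). The Cre-negative library had 5 of 5928, 0.0843% (0.0274 to 0.197%). The IHG offspring library had 69 of 11938, 0.578% (0.450 to 0.731%), and the control offspring library 163 of 15752, 1.03% (0.883 to 1.21%). The intervals did not overlap within either pair of libraries, the Cre-positive share being above the Cre-negative one and the IHG share below that of the control offspring. With both hormones required at 10% the IHG share was above, at 0.343% against 0.159% in the control offspring library. These shares rest on the rule itself and are a description. Since cells per library depend on dissociation and loading, the group and the preparation cannot be told apart with 1 library each.

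Relative to the cells that met 1 of the hormone limits, the libraries of each pair lay the same way. Cells rich in both hormones made up 24.0% of 2204 low-insulin cells with Gcg at 3% or more in the Cre-positive library and 0.911% of 549 in the Cre-negative library. They made up 3.33% of 2075 such cells in the IHG offspring library and 14.1% of 1157 in the control offspring library. Of low-insulin cells with Sst at 3% or more, they were 41.0% of 1288 in the Cre-positive and 0.826% of 605 in the Cre-negative library, and 5.07% of 1360 in the IHG offspring and 19.0% of 860 in the control offspring library. A further 115 cells in the Cre-positive, 0 in the Cre-negative, 39 in the IHG offspring and 154 in the control offspring library passed both hormone limits but had 5% or more insulin UMIs, and they are not among the 765.

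For comparison, glucagon-only cells were defined by Gcg at 3% or more with Sst below 1%, and somatostatin-only cells by Sst at 3% or more with Gcg below 1%, both with insulin below 5%. There were 1541, 542, 2000 and 950 glucagon-only cells, and 729, 594, 1285 and 692 somatostatin-only cells, in the Cre-positive, Cre-negative, IHG offspring and control offspring libraries. Cells with the smaller hormone between 1 and 3% belong to none of the 3 classes, so the empty bands in the plot of hormone shares follow from these limits.

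**Figure D1:**
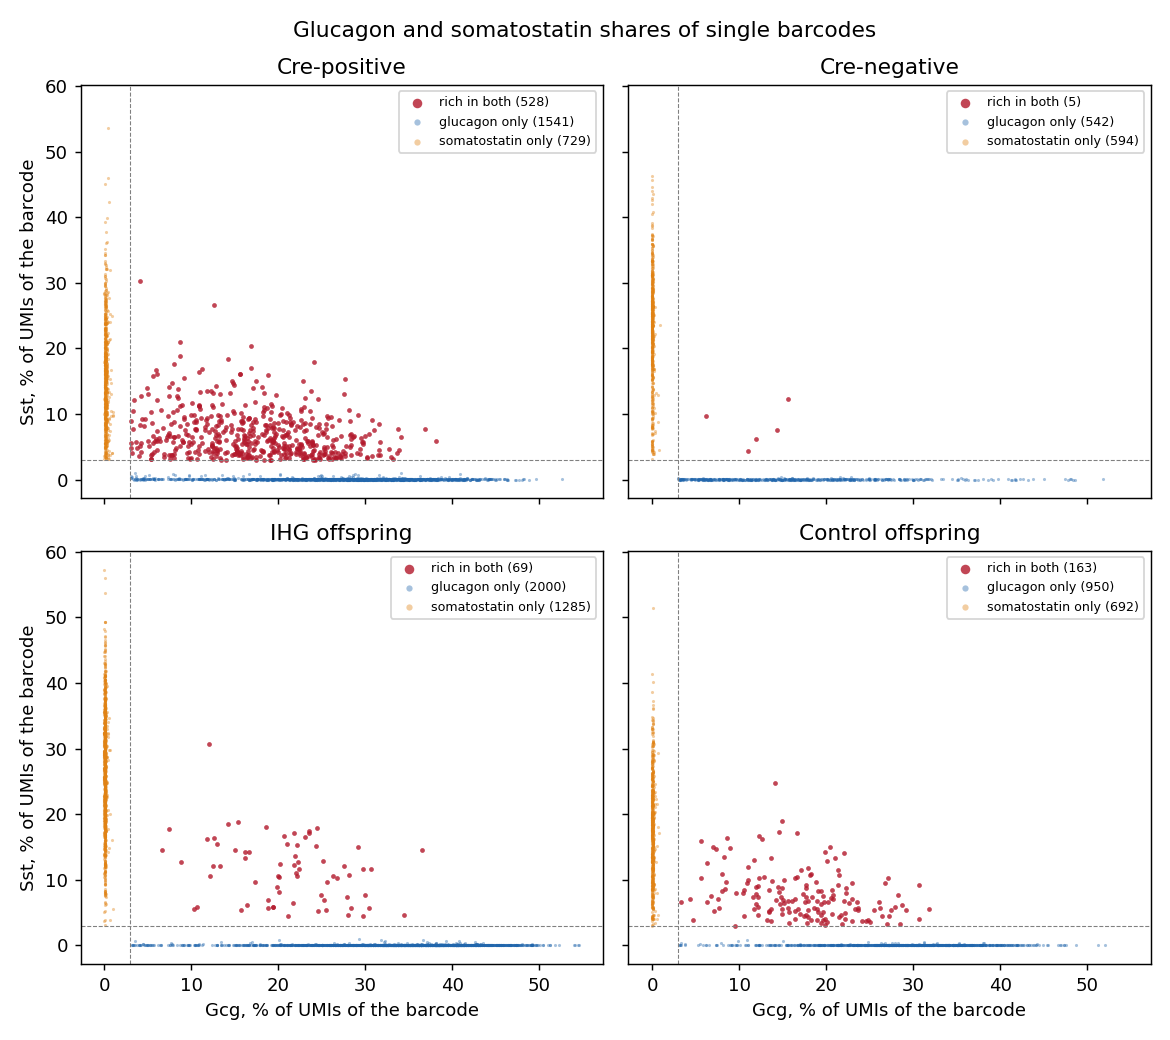
Gcg share (x axis, % of UMIs) against Sst share (y axis, % of UMIs) of single barcodes, 1 panel per library, with cells rich in both hormones in red, glucagon-only cells in blue and somatostatin-only cells in orange, and dashed lines at the 3% limits. The red cells number 528 in the Cre-positive, 5 in the Cre-negative, 69 in the IHG offspring and 163 in the control offspring panel, and most lie at a higher Gcg than Sst share.

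Glucagon was the larger of the 2 hormones in most of these cells, in 455 of 528 (86.2%) in the Cre-positive, 4 of 5 in the Cre-negative, 60 of 69 (87.0%) in the IHG offspring and 139 of 163 (85.3%) in the control offspring library. The Gcg share ranged between 3.06% and 38.1% with a median of 17.1% in the Cre-positive library, and had medians of 11.9%, 21.7% and 17.6% in the Cre-negative, IHG offspring and control offspring libraries. The Sst share ranged between 3.02% and 30.3% with a median of 6.10% in the Cre-positive library, and had medians of 7.59%, 11.7% and 6.84% in the others, in the same order. Glucagon-only cells had higher Gcg shares, with medians of 28.7%, 15.7%, 35.1% and 29.1%. Somatostatin-only cells had median Sst shares of 15.5%, 23.5%, 26.9% and 17.6%. Both hormones thus took a smaller part of the message than in the single-hormone cells, while their UMIs per cell were about as many outside the Cre-negative library. The median cell rich in both carried 1.18, 2.04, 1.15 and 1.22 times the Gcg UMIs of the median glucagon-only cell, and 1.22, 0.690, 1.06 and 1.18 times the Sst UMIs of the median somatostatin-only cell.

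The limit of 3% cut through a continuous range in the Cre-positive and control offspring libraries. There were 109 Cre-positive cells that had their smaller hormone between 3 and 4%, and 86 low-insulin cells with it between 2 and 3%. In the control offspring library these numbers were 22 and 30, in the IHG offspring library 0 and 3, and in the Cre-negative library 0 and 2. The nearest member had a smaller share of 3.02% and the nearest cell outside 2.98% in the Cre-positive library, against 4.48% and 2.61% in the IHG offspring library. The cells just inside in the Cre-positive library were deeper, with a median of 12348 UMIs against 8450.5 UMIs just outside. Both hormones were at 10% or more in 58 (10.98%) cells of the Cre-positive, 1 of the Cre-negative, 41 (59.4%) of the IHG offspring and 25 (15.3%) of the control offspring library.

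Cells rich in both hormones carried about as much RNA as a glucagon-only and a somatostatin-only cell together. Their median was 12554 UMIs in the Cre-positive library, against 6148 UMIs in glucagon-only and 4477 UMIs in somatostatin-only cells. In the Cre-negative library the median was 17253 UMIs, against 6510 and 5665.5 UMIs. In the IHG offspring library it was 11689 UMIs, against 6355.5 and 4659 UMIs, and in the control offspring library 7968 UMIs, against 4085 and 2852.5 UMIs. The medians were therefore 2.04, 2.65, 1.84 and 1.95 times those of glucagon-only cells and 2.80, 3.05, 2.51 and 2.79 times those of somatostatin-only cells. Set over the sum of the 2 single-hormone medians they were 1.18, 1.42, 1.06 and 1.15. Without hormone and mitochondrial UMIs the medians were 2.14, 2.27, 1.86 and 2.04 times those of glucagon-only cells.

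The number of detected genes was also high in these cells. They had a median of 3422 genes in the Cre-positive library, against 1989 genes in glucagon-only and 1826 in somatostatin-only cells, and 4267, 3183 and 2565 genes in the Cre-negative, IHG offspring and control offspring libraries. In the Cre-positive library they were 138 of the 959 cells (14.4%) in the top 10% by UMIs and 84 of the 4794 cells (1.75%) below the median. In the control offspring library the same shares were 1.59% and 0.457%, and in the IHG offspring library 1.68% and 0.117%. Mitochondrial shares lay close together, with medians of 4.75% in cells rich in both, 4.58% in glucagon-only and 4.70% in somatostatin-only cells of the Cre-positive library.

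**Figure D2:**
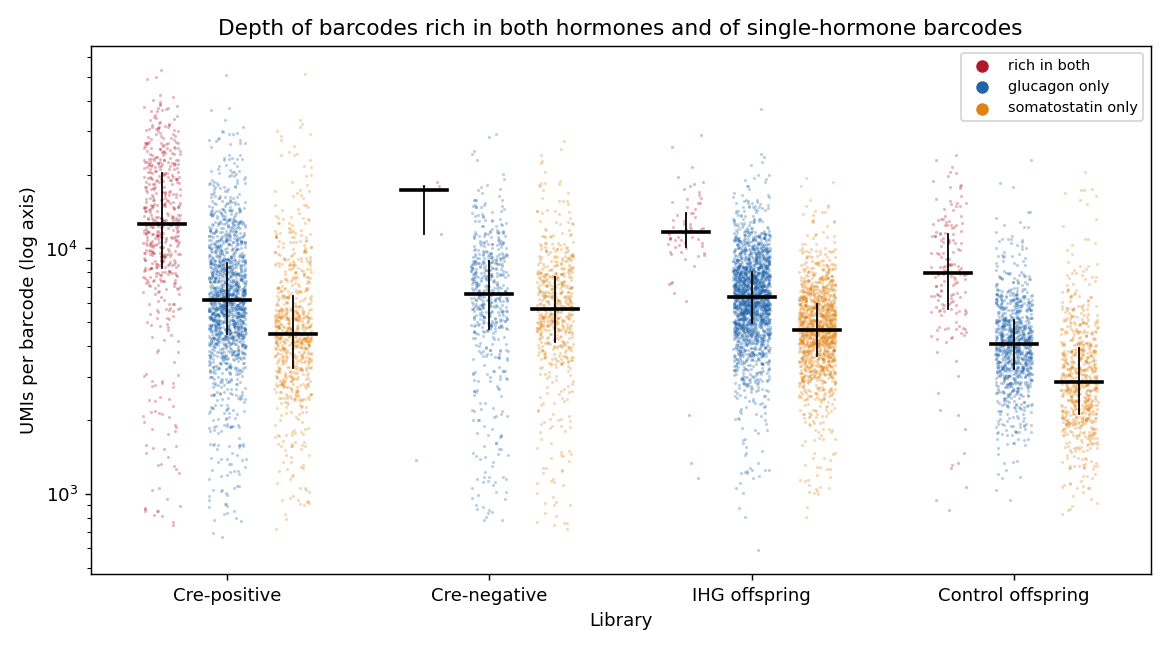
UMIs per barcode (log axis) in cells rich in both hormones, glucagon-only and somatostatin-only cells of each library, with a dot for each barcode, a thick bar at the median and a thin line between the quartiles. In all 4 libraries the median of the cells rich in both lies above both single-hormone medians, at 12554, 17253, 11689 and 7968 UMIs, with a tail of shallow barcodes below.

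Not all of them were deep. At or below the median of glucagon-only cells lay 83 of 528 (15.7%) in the Cre-positive, 1 of 5 in the Cre-negative, 4 of 69 (5.80%) in the IHG offspring and 14 of 163 (8.59%) in the control offspring library. The 83 shallow Cre-positive cells had a median of 2739 UMIs, with 11.5% Gcg and 5.12% Sst. Free RNA in the suspension can add hormone UMIs to a barcode, and so can a further cell. Which of them did so here was not tested. Endothelial-rich barcodes (0.5% or more of UMIs on an endothelial list), which should make neither hormone, had a median Gcg share of 0.165% in the Cre-positive, 0.0239% in the Cre-negative, 0.0746% in the IHG offspring and 0.0276% in the control offspring library, and a median Sst share of at most 0.0492%, at median depths of 2091.5 to 2541 UMIs. Gcg reached 3% in 1.71%, 0.930%, 6.36% and 1.42% of them. The medians lay far below the 3% limits, but in the IHG offspring library the 95th percentile of Gcg was 3.88%.

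The cells carried transcription factors of both lineages. Hhex was detected in 415 of 528 cells (78.6%) rich in both hormones in the Cre-positive library, against 2.60% of glucagon-only and 79.6% of somatostatin-only cells. It was detected in 55 of 69 (79.7%) in the IHG offspring library, against 0.450% and 72.1%, and in 120 of 163 (73.6%) in the control offspring library, against 0.737% and 66.0%. In the Cre-negative library it was found in 2 of 5 cells, against 0.185% and 71.2%. Irx1 was detected in 61.4%, 60%, 53.6% and 58.9% of the cells rich in both in the Cre-positive, Cre-negative, IHG offspring and control offspring libraries, against 59.9%, 59.2%, 59.6% and 51.6% of glucagon-only and 1.65%, 2.19%, 1.17% and 1.01% of somatostatin-only cells. The defining factor of delta cells was therefore found in most cells rich in both of 3 libraries, and in the minority of the Cre-negative cells.

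Detection was lower at equal depth. After each cell was thinned to 1500 UMIs, with shallower cells left out, Hhex was found in 144 of 508 cells (28.4%) in the Cre-positive library, with 20 left out, and in 0.733% of glucagon-only and 51.8% of somatostatin-only cells. It was found in 11 of 67 (16.4%) in the IHG offspring library, with 2 left out, against 0.101% and 39.95%, and in 50 of 156 (32.1%) in the control offspring library, with 7 left out, against 0 of 940 glucagon-only cells, which allows a share of up to 0.392%, and 45.7% of somatostatin-only cells. In the Cre-negative library it was 0 of 4 cells, with 1 left out. At equal depth the cells rich in both thus lay between the single-hormone classes in 3 libraries. Before thinning, 38 of the 83 shallow Cre-positive cells had Hhex, against 377 of the 445 deeper ones.

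Irx1 and Irx2 stood near the level of a whole glucagon-only cell. Irx1 averaged 1.55 UMIs per cell in cells rich in both hormones in the Cre-positive library, against 1.32 in glucagon-only and 0.0178 in somatostatin-only cells. It averaged 1.19 in the IHG offspring library, against 1.20 and 0.0140, and 1.09 in the control offspring library, against 0.877 and 0.0116. Irx2 averaged 1.04, 1.03 and 0.724 in the same libraries, against 0.925, 0.948 and 0.651 in glucagon-only and 0.0521, 0.0436 and 0.0448 in somatostatin-only cells. Ttr, the transthyretin gene, averaged 99.6, 168 and 78.7 UMIs, against 74.9, 148 and 64.4 in glucagon-only cells. Slc7a2, a cationic amino acid transporter, averaged 3.12, 2.62 and 2.34, against 2.54, 2.79 and 2.10. The 5 Cre-negative cells averaged 1.4 Irx1 and 4.80 Slc7a2 UMIs, against 1.35 and 4.87 in glucagon-only cells, but only 67.8 Ttr UMIs, against 164.

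Hhex stood at or above the level of a whole somatostatin-only cell in the same barcodes of 3 libraries. Hhex averaged 2.94 UMIs per cell in the Cre-positive library, against 0.0370 in glucagon-only and 2.78 in somatostatin-only cells. It averaged 2.41 in the IHG offspring library, against 0.00450 and 1.96, and 1.94 in the control offspring library, against 0.0116 and 1.60. Ptprz1, a receptor tyrosine phosphatase, averaged 0.415, 0.377 and 0.313, against 0.368, 0.363 and 0.256 in somatostatin-only cells. Ghsr, the ghrelin receptor through which delta cells respond to ghrelin, averaged 0.186, 0.130 and 0.221, against 0.192, 0.145 and 0.127 in somatostatin-only cells, and in the control offspring library it was 1.74 times the sum of both classes. Rbp4, a retinol carrier, averaged 19.8, 17.5 and 9.54, against 12.2, 12.9 and 6.17. In the Cre-negative cells Hhex averaged 0.600 UMIs, against 2.16 in somatostatin-only cells, and Ghsr was at 0.

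**Figure D3:**
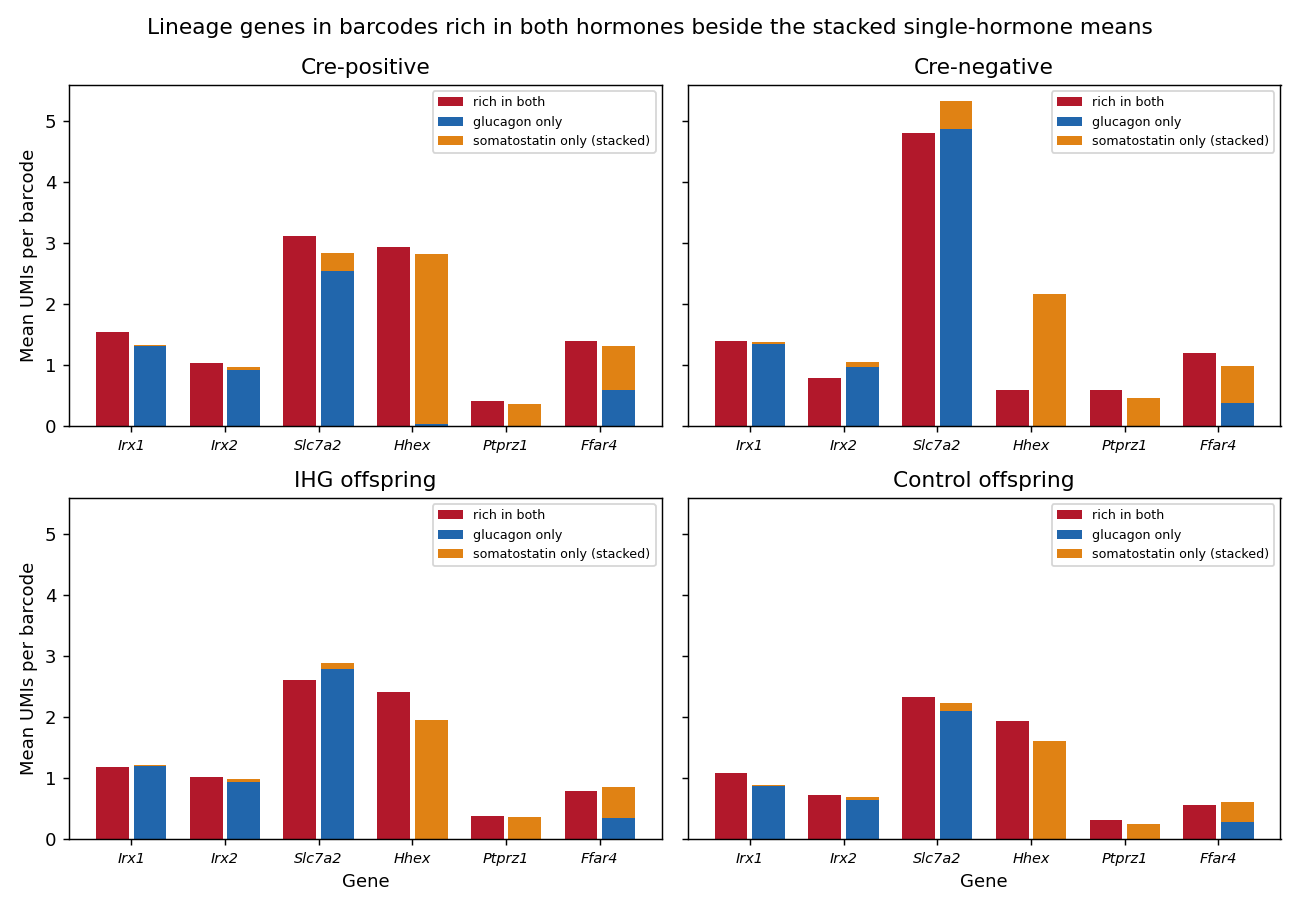
Mean UMIs per barcode of 3 alpha genes (Irx1, Irx2, Slc7a2) and 3 genes used as delta markers (Hhex, Ptprz1, Ffar4), with cells rich in both hormones in red, left of the glucagon-only mean (blue) with the somatostatin-only mean (orange) stacked on it, 1 panel per library. In the Cre-positive library Irx1 is at 1.55 and Hhex at 2.94 UMIs in the red bars and the stacks are of about the same height, while Hhex is at 0.600 UMIs in the 5 Cre-negative cells.

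Summed over genes, the cells rich in both hormones lay close to a glucagon-only and a somatostatin-only cell added together. For each gene with 50 or more UMIs in them, the mean UMIs per cell was set over the sum of the 2 single-hormone means. The ratio was within 1.5-fold of 1 for 9375 of 9464 genes (99.1%) in the Cre-positive, 103 of 109 (94.5%) in the Cre-negative, 1935 of 1945 (99.5%) in the IHG offspring and 3856 of 3922 (98.3%) in the control offspring library. The median ratio was 1.06, 1.06, 1.02 and 1.12. These cells were about as deep as the 2 single-hormone classes together. At that depth a gene with a similar CPM in both classes falls near the sum whatever the barcode holds. The counts over all genes therefore partly restate depth, and only genes that differ between the classes add to it. Of the alpha genes with 10 or more UMIs, 12 of 13 were within 1.5-fold of the sum in the Cre-positive, 6 of 7 in the Cre-negative, 10 of 11 in the IHG offspring and 11 of 13 in the control offspring library. For the delta genes these counts were 11 of 11, 2 of 2, 8 of 8 and 9 of 10. The alpha list includes Gcg and the delta list Sst, which the rule used, so part of each count is a description. The counts over all genes leave out Gcg, Sst, Ins1 and Ins2. In the Cre-negative library the 2 delta genes were Sst and Rbp4. The exceptions among alpha genes included Ttr at 0.392 times the sum in the Cre-negative library, and Nrp1, which is abundant in endothelial cells, at 0.426 and 0.492 times in the Cre-positive and control offspring libraries.

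Most genes of the secretory pathway and most endocrine transcription factors lay within 1.5-fold of the sum, but so did 99.1%, 94.5%, 99.5% and 98.3% of all genes with 50 or more UMIs in the Cre-positive, Cre-negative, IHG offspring and control offspring libraries, so these counts are not particular to the lists. Of 22 genes of prohormone processing and secretory granules, 22 of 22 were within 1.5-fold of the sum in the Cre-positive and the control offspring library, 19 of 20 with enough UMIs in the IHG offspring and 13 of 14 in the Cre-negative library. Pcsk2, a prohormone convertase of islet cells, averaged 46.0 UMIs in cells rich in both, 28.9 in glucagon-only and 12.2 in somatostatin-only cells of the Cre-positive library. Chga, a granule protein, averaged 158, 86.4 and 50.3 UMIs. Among 16 endocrine transcription factors, 15 of 15, 5 of 7, 14 of 14 and 14 of 14 were within 1.5-fold of the sum in the Cre-positive, Cre-negative, IHG offspring and control offspring libraries. Neurog3, the factor that starts endocrine differentiation, averaged 0.341 UMIs in cells rich in both, 0.0117 in glucagon-only and 0.254 in somatostatin-only cells of the Cre-positive library. It averaged 0.812, 0.0265 and 0.739 in the IHG offspring library, and 0.331, 0.00737 and 0.363 in the control offspring library, so its level in the cells rich in both was close to that in somatostatin-only cells.

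Receptors that were mainly in one single-hormone class were found together in the summed cells rich in both. Sstr2, a somatostatin receptor of alpha cells, averaged 0.532 UMIs in cells rich in both, 0.430 in glucagon-only and 0.0219 in somatostatin-only cells of the Cre-positive library. Glp1r, the incretin receptor that mouse delta cells carry, averaged 0.506, 0.0539 and 0.481. Avpr1b, a vasopressin receptor of alpha cells, averaged 0.184, 0.125 and 0.0206. Of 22 receptor genes, 20 of 20 with enough UMIs were within 1.5-fold of the sum in the Cre-positive, 1 of 1 in the Cre-negative, 13 of 14 in the IHG offspring and 16 of 18 in the control offspring library. Of all genes with 50 or more UMIs it was 99.1%, 94.5%, 99.5% and 98.3%, so these counts are not particular to receptors.

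No gene stood 1.5-fold above or below both single-hormone classes in every library. On the scale of CPM, 0 of 2603 genes (0%) with 50 CPM or more were above both single-hormone classes by 1.5-fold in all 4 libraries, and 0 of 2603 (0%) were below both. Without the Cre-negative library it was 0 of 2675 (0%) above and 0 of 2675 (0%) below. In the Cre-positive library 3118 of 3123 genes at 50 CPM or more (99.8%) lay between the single-hormone levels or within 1.5-fold of them, in the IHG offspring library 2935 of 2950 (99.5%) and in the control offspring library 3275 of 3283 (99.8%). In the Cre-negative library it was 2643 of 3952 (66.9%), where 1 UMI is worth 15.0 CPM.

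Against glucagon-only cells, every gene that passed 2-fold in the same direction in all libraries was higher in cells rich in both. Of 2188 genes, 15 (0.686%) passed 2-fold upwards in all 4 libraries and 0 (0%) downwards. Without the Cre-negative library, of 2250 genes 27 (1.20%) were higher and 0 (0%) lower. Frzb, a secreted Wnt antagonist, was at 156, 195, 132 and 188 CPM in cells rich in both in the Cre-positive, Cre-negative, IHG offspring and control offspring libraries, against 9.98, 11, 3.94 and 12.4 CPM in glucagon-only cells. Hadh, a mitochondrial enzyme of fatty acid oxidation, was at 319, 314, 295 and 271 CPM, against 49.6, 56.9, 27.0 and 53.9 CPM. Sez6l, Cd24a, Gap43, Nnat, Shisal2b, Tspan8, Atp1b2 and Mlxipl, which encodes a glucose-responsive transcription factor, followed the same pattern. Hhex was at 201, 197 and 219 CPM in the Cre-positive, IHG offspring and control offspring libraries, against 5.08, 0.669 and 2.61 CPM, and had 3 UMIs in the Cre-negative cells. The contrast uses the same cells as the rule, so these folds are a description.

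Against somatostatin-only cells, genes differed in both directions, and the alpha list genes Irx1, Irx2 and Slc7a2 were among the 10 furthest above. Of 2507 genes, 18 (0.718%) passed 2-fold upwards in all 4 libraries and 16 (0.638%) downwards. Without the Cre-negative library, of 2591 genes 26 (1.00%) were higher and 27 (1.04%) lower. Irx1 was at 106, 105, 97.2 and 123 CPM in cells rich in both, against 3.10, 5.62, 2.80 and 3.39 CPM in somatostatin-only cells. Pdk4, a kinase that shuts off pyruvate dehydrogenase, was at 118, 255, 94.8 and 118 CPM, against 17.4, 19.3, 1.09 and 8.05 CPM. Higd1a, Tmsb15b2, Ociad2 and Pappa2, a protease of insulin-like growth factor binding proteins, were also among the 10. Lower were Atp1b2, a sodium pump subunit, at 68.6, 135, 56.9 and 73.4 CPM, against 160, 346, 178 and 184 CPM, together with Cela1, Filip1, Tmem132b, Adam22, F5, Mef2c, Fxyd3, Rasgef1a and Dpp6. Cela1, F5, Fxyd3 and Rasgef1a had 0 or 1 UMI in the Cre-negative cells. Atp1b2 lay between the single-hormone levels, being also among the 10 furthest above glucagon-only cells.

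The summed message was also described as a mixture of the single-hormone profiles. A weight was fitted by least squares so that the CPM profile equalled that weight of the glucagon-only profile plus the rest of the somatostatin-only profile, leaving out Gcg, Sst, Ins1 and Ins2. The weight of the glucagon-only profile was 0.65 in the Cre-positive, 0.43 in the Cre-negative, 0.60 in the IHG offspring and 0.59 in the control offspring library. The part that glucagon-only cells would contribute if UMIs simply added is 0.58, 0.53, 0.58 and 0.59. Across genes, which are not independent replicates, the fitted mixture correlated with the cells rich in both at r = 0.989, 0.695, 0.982 and 0.987. The glucagon-only profile alone correlated with them at r = 0.933, 0.672, 0.895 and 0.918. For the somatostatin-only profile alone r was 0.931, 0.654, 0.883 and 0.917. The weight was fitted to the same profile, so the values of the mixture are a description.

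Single cells spread along the mixture and did not gather at either end. In the Cre-positive library the weight had a median of 0.62 and quartiles of 0.43 and 0.81 in cells rich in both, against a median of 1.04 in glucagon-only and -0.01 in somatostatin-only cells. The medians were 0.45, 0.59 and 0.61 in the Cre-negative, IHG offspring and control offspring libraries. Weights between 0.2 and 0.8 were found in 362 of 528 cells (68.6%) in the Cre-positive, 5 of 5 in the Cre-negative, 59 of 69 (85.5%) in the IHG offspring and 122 of 163 (74.8%) in the control offspring library, against 12.4%, 13.8%, 16.4% and 10.8% of glucagon-only cells. Over the cells, the weight rose with Gcg as a share of Gcg plus Sst. Spearman's rho was 0.61 for 528, 0.55 for 69 and 0.61 for 163 cells of the Cre-positive, IHG offspring and control offspring libraries. Gcg and Sst were left out of the fitted genes but stayed in the UMI totals behind CPM. The weight and this share are therefore not independent. The points of each library share its depth and its free RNA.

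**Figure D4:**
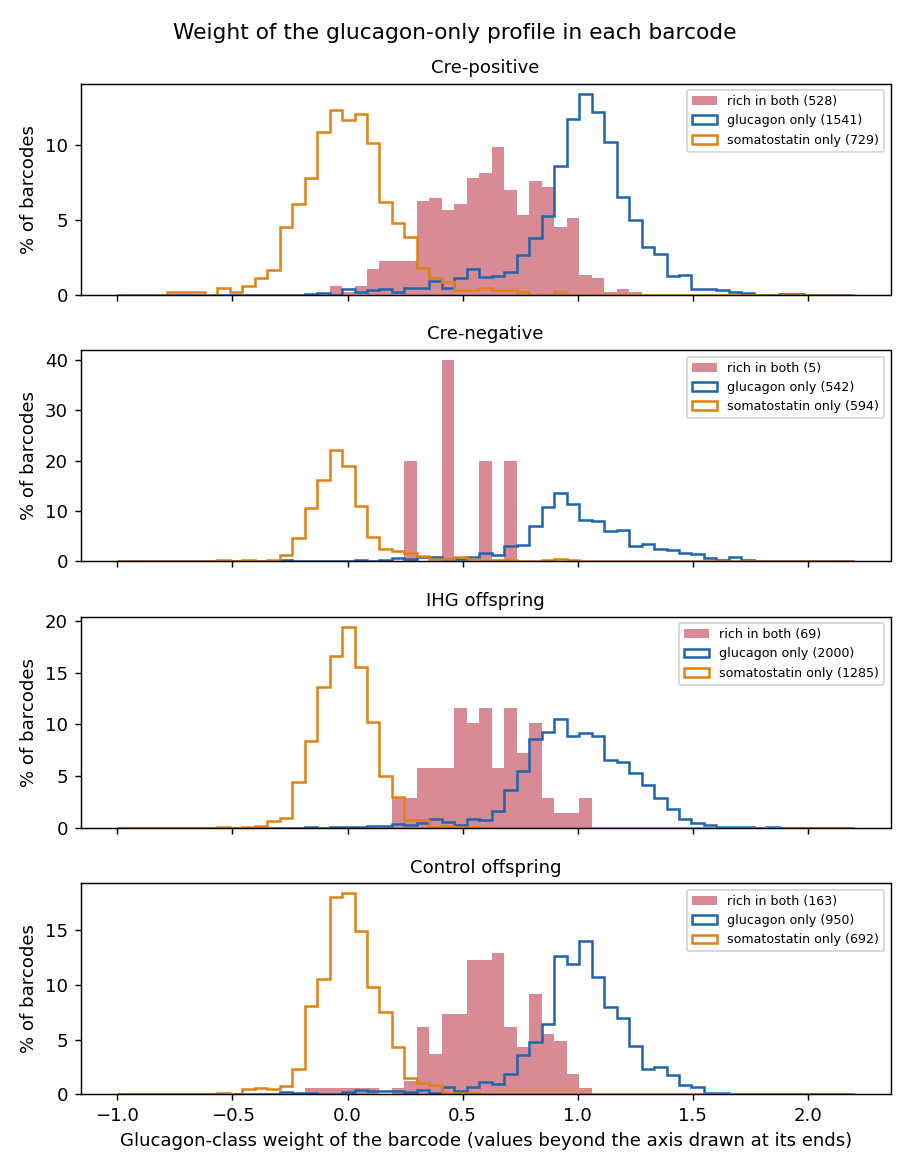
Distribution over barcodes (y axis, % of the barcodes of a class) of the weight of the glucagon-only profile (x axis, 0 for the somatostatin-only and 1 for the glucagon-only profile), 1 panel per library, with cells rich in both hormones filled in red and the single-hormone classes outlined. The medians of the red cells, at 0.62, 0.45, 0.59 and 0.61, lie between those of the outlined classes. The distributions overlap. In the Cre-positive library 68.6% of red, 12.4% of glucagon-only and 13.6% of somatostatin-only cells lie between 0.2 and 0.8.

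The number of such cells was set beside the overlap expected if the glucagon-positive and somatostatin-positive low-insulin labels fell independently on all kept cells. That number uses no doublet rate, so the ratios are no comparison with how often cells would be joined at random. The Cre-positive library had 528 against 296.1 expected, a ratio of 1.78, and the Cre-negative library 5 against 56.0, a ratio of 0.0892. The IHG offspring library had 69 against 236.4, a ratio of 0.292, and the control offspring library 163 against 63.2, a ratio of 2.58. Counted only among kept cells with insulin below 5%, an alternative added after seeing the data, the ratios were 1.10, 0.0392, 0.121 and 0.530, so a value above 1 in the control offspring library depends on that choice. With hormones at 10% the ratio was 0.428 in the Cre-positive and 0.586 in the control offspring library. The counts come from the limits that define the cells, so the ratios are a description.

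With all kept cells as the base, other pairs of classes gave lower ratios in the Cre-positive, IHG offspring and control offspring libraries. The values among low-insulin cells do not keep this order: 0.530 in the control offspring and 0.121 in the IHG offspring library are below those of insulin with somatostatin, which were taken over all kept cells. For pairs with insulin, the hormone class was not limited to low-insulin cells. Insulin (5% or more) with glucagon had a ratio of 0.473, 0.0474, 0.250 and 0.386 in the Cre-positive, Cre-negative, IHG offspring and control offspring libraries, and insulin with somatostatin 0.471, 0.313, 0.265 and 0.561. Endothelial cells with glucagon had 0.0647, 0.100, 0.0993 and 0.139, and endothelial cells with somatostatin 0.0533, 0.182, 0.0852 and 0.202. Macrophages with glucagon had 6 barcodes against 149.2 expected in the Cre-positive library, a ratio of 0.0402, and 0, 4 and 0 barcodes in the others. On that base, pairs of endocrine classes had higher ratios than pairs with an endothelial cell or a macrophage in the Cre-positive and control offspring libraries. In the Cre-negative library glucagon with somatostatin was below endothelial cells with somatostatin.

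**Figure D5:**
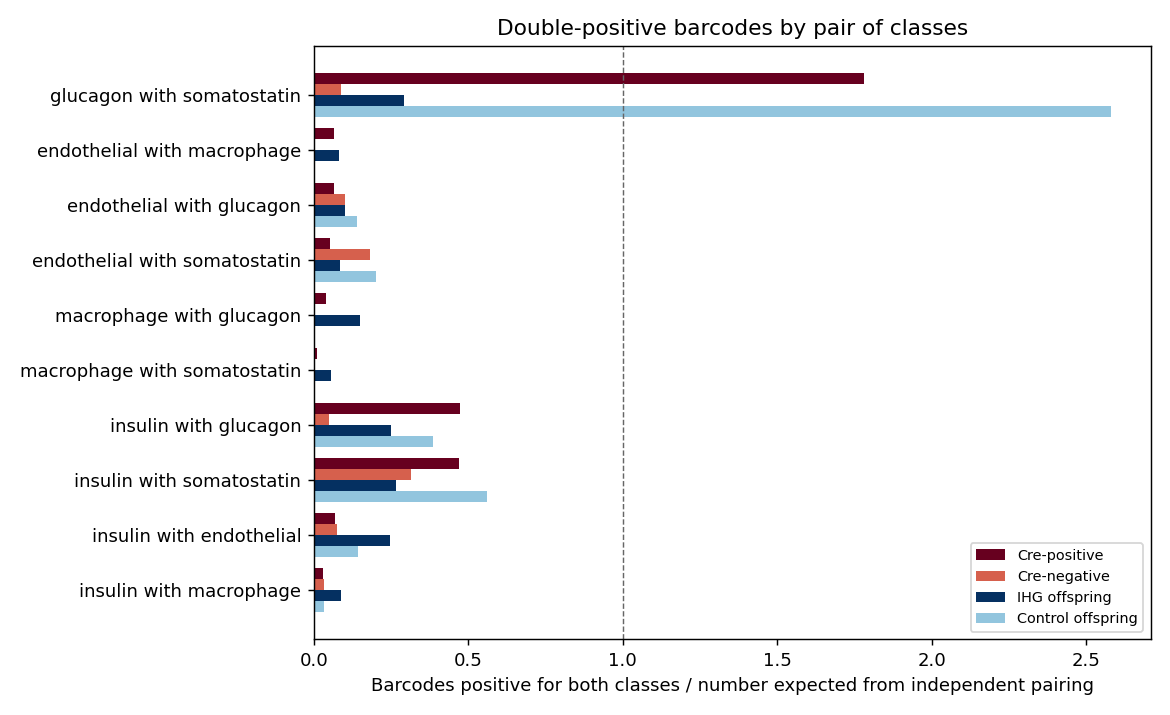
Barcodes positive for both of 2 classes over the number expected from independent pairing of the 2 labels among kept cells (x axis, linear). Rows are 10 pairs of classes and bars are 4 libraries, with a dashed line at 1. Glucagon with somatostatin reaches 1.78 in the Cre-positive and 2.58 in the control offspring library, 0.0892 in the Cre-negative and 0.292 in the IHG offspring library, and the other 9 pairs stay at or below 0.561.

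A doublet score from Scrublet, which counts how many neighbours of a cell are simulated pairs of other cells, gave a different answer in each library. It marked 11 of 528 cells rich in both hormones (2.08%) in the Cre-positive library, against 1.85% of all kept cells, and 18 of 69 (26.1%) in the IHG offspring library, against 4.87%. In the Cre-negative and control offspring libraries its automatic threshold marked only 0.321% and 0.00635% of kept cells and had not worked, so the top 6% by score was used there. That marked 4 of 5 cells in the Cre-negative library, against 6.01% of all kept cells, and 4 of 163 (2.45%) in the control offspring library, against 6.46%. The median score was 0.0708, 0.275, 0.190 and 0.0714 in cells rich in both, against 0.0417, 0.0320, 0.0236 and 0.0271 in glucagon-only cells and 0.0261, 0.0236, 0.0199 and 0.0230 in somatostatin-only cells. The score was thus higher than in both single-hormone classes in all 4 libraries, and the median stood at the 70.6th, 97.3rd, 92.5th and 40.0th percentile of kept cells in the Cre-positive, Cre-negative, IHG offspring and control offspring libraries. Whether a barcode held a single cell or a joined pair was not tested, since no file marks single cells independently of their RNA.

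Other islet hormones and other cell types were looked at in the same cells. Pyy, the gene of peptide YY, averaged 310, 695, 340 and 153 UMIs per cell in cells rich in both in the Cre-positive, Cre-negative, IHG offspring and control offspring libraries, which was 1.03, 2.94, 1.21 and 1.14 times the sum of the single-hormone means. Ppy, the gene of pancreatic polypeptide, averaged 117, 156, 73.6 and 59.0 UMIs, 0.711, 7.99, 1.36 and 1.20 times the sum. Iapp, the amylin gene, averaged 84.2, 14.2, 79.1 and 59.3 UMIs, and was within 1.5-fold of the sum of the single-hormone means except in the Cre-negative library, at 1.32, 0.246, 1.22 and 1.35 times. Of the beta genes with 10 or more UMIs, 6 of 11, 1 of 5, 5 of 6 and 9 of 11 were within 1.5-fold of the sum. Of all genes with 50 or more UMIs it was 99.1%, 94.5%, 99.5% and 98.3%, a higher limit at which ratios scatter less, so the shares are not on equal terms. Above it in the Cre-positive library were Ins1 at 1.78, Ins2 at 1.61, Slc2a2 at 2.10 and Ucn3 at 1.53 times the sum. In the control offspring library Ins2 was at 1.52 and Npy, on 10 UMIs, at 10.6 times the sum. Insulin below 5% is part of the rule, so the Ins1 and Ins2 values are a description. The 12 endothelial markers summed to 0.0127%, 0.00299%, 0.00320% and 0.0196% of UMIs, below glucagon-only and somatostatin-only cells in every library, and Cldn5 was at 0 in the Cre-negative, IHG offspring and control offspring libraries. The 12 macrophage markers summed to 0.00522%, 0.00299%, 0.00178% and 0.000761%. The 12 cell-cycle genes summed to 0.00110%, 0%, 0.000829% and 0.00125% of UMIs. Ghrl, the ghrelin gene of epsilon cells, averaged 0.0152 UMIs in Cre-positive cells rich in both, against 0.0149 in glucagon-only and 0.808 in somatostatin-only cells, but its UMIs in somatostatin-only cells came from 0.960% of them, while 1.52% of the cells rich in both had any. It was at 0 in the Cre-negative and IHG offspring cells.

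The 5 Cre-negative cells differed among themselves and can be given singly. The deepest had 18653 UMIs with 15.6% Gcg, 12.2% Sst, 7.35% Pyy and 2.45% Ppy, and 2 Hhex UMIs. The next had 18047 UMIs with 11.9% Gcg, 6.24% Sst, 6.37% Pyy and 1.39% Ppy, and 1 Hhex UMI. The cell with 17253 UMIs had 11% Gcg, 4.31% Sst and 4.07% Pyy, and the cell with 11453 UMIs had 14.4% Gcg, 7.59% Sst and 2.00% Pyy, both with 0 Hhex UMIs. The shallowest had 1378 UMIs with 6.17% Gcg and 9.65% Sst, and 0 Hhex UMIs. The deepest pair stood out by pancreatic polypeptide, and Hhex was found in that pair alone.

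Between Cre-positive and Cre-negative islets, heat shock genes were higher in the Cre-positive cells rich in both hormones. Because the Cre-negative side is 5 cells with 66784 UMIs, against 7715621 UMIs on the Cre-positive side, only large folds are readable. Of 3418 genes with 50 CPM or more in either library, 305 (8.92%) passed 2-fold upwards in the Cre-positive library and 735 (21.5%) downwards, and 91 and 374 of them had a counting interval that left out 1. In the Cre-negative cells 4 UMIs suffice for 50 CPM, and 240 of the 305 and 568 of the 735 genes reached 50 CPM only in the library where they were higher, so the counts are a description and not a measure of how many genes differ. Scaling by the median of ratios gave 516 higher and 366 lower, and CPM without hormone and mitochondrial genes gave 531 higher and 1012 lower. The median over all genes was -0.39 on the log2 scale. Of 17 immediate early and heat shock genes 9 were at least 2-fold higher and 1, Dusp1, lower, with a median log2 ratio of 1.24 (1.63 and 1.26 under the other scalings), against 0.69 in glucagon-only and 2.04 in somatostatin-only cells.

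Bag3, a co-chaperone induced by proteotoxic stress, had 6200 UMIs (804 CPM) in the Cre-positive and 1 UMI (15.0 CPM) in the Cre-negative cells, a ratio of 53.7 (9.63 to 2120.0). Hsph1, which encodes a large heat shock protein, had 1256.2 and 59.9 CPM, a ratio of 21.0 (8.19 to 77.0). Hspa1b, an inducible Hsp70 gene nearly identical to Hspa1a, had 11237.9 and 2710.2 CPM, a ratio of 4.15 (3.58 to 4.82). Dnaja1, Dnaja4, Atf3, Mt1, Ins2 and Iapp were also higher, and Mt2 had 1323 UMIs in the Cre-positive and 0 in the Cre-negative cells. Insulin below 5% is part of the rule, so the Ins2 ratio is a description. The median insulin share was 0.162% in the Cre-positive and 0.148% in the Cre-negative cells, with highest values of 4.95% and 0.296%. The Ins2 ratio was 1.34 in glucagon-only and 1.32 in somatostatin-only cells. In glucagon-only cells Bag3 was at 515 CPM in the Cre-positive and 34.6 CPM in the Cre-negative library, and in somatostatin-only cells at 1347.4 and 30.0 CPM. Iapp stood at 5762.2 CPM in the Cre-positive and 1063.1 CPM in the Cre-negative cells, a ratio of 5.42 (4.30 to 6.94), but at 1350.7 and 1221.4 CPM in glucagon-only cells and 9375.9 and 7815.9 CPM in somatostatin-only cells. On the lower side, Dusp1, a phosphatase that turns off MAP kinases, had 85.2 and 419 CPM, 4.92-fold lower (3.25 to 7.18). Ppp2r2c, a phosphatase subunit, had 6.87 and 105 CPM, with 7 UMIs in the Cre-negative cells, and AI182371, Fam184b, Serpina1a, Shisa2, Gpx2, Fam107a, Ankra2 and Zkscan1 rested on 4 to 9 UMIs each there. Of 9 alpha genes at 50 CPM or more, 0 were 2-fold higher and 1, Gc, lower, and of 4 delta genes 1, Hhex, was higher, on 3 UMIs in the Cre-negative cells.

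Between IHG and control offspring, immediate early and heat shock genes were lower in IHG cells rich in both hormones. Of 2817 genes, 3 (0.106%) passed 2-fold upwards in IHG cells and 114 (4.05%) downwards, all with an interval that left out 1, and 3 and 67 of them reached 50 CPM only in the library where they were higher. Scaling by the median of ratios gave 11 higher and 76 lower, and CPM without hormone and mitochondrial genes gave 54 higher and 117 lower. The median over all genes was -0.14 on the log2 scale. Of the 17 immediate early and heat shock genes 15 were at least 2-fold lower, with a median log2 ratio of -1.47 (-1.33 and -1.29 under the other scalings), against -1.43 in glucagon-only and -1.38 in somatostatin-only cells. The 2 that did not reach 2-fold were Junb and Ier2.

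Atf3, a stress-induced transcription factor, was at 84.1 CPM in IHG and 392 CPM in control offspring cells, 4.66-fold lower (3.63 to 6.05). Fosb, an immediate early factor, was at 638 and 2411.5 CPM, 3.78-fold lower (3.45 to 4.15). Arc, Klf2, Ccn1 and Rnd3 were 4.06 to 4.86-fold lower, and Egr4 had 1 UMI in IHG and 77 UMIs in control offspring cells, 45.0-fold lower (7.84 to 1799.3). Ins2 was at 1452.8 and 8686.5 CPM, 5.98-fold lower (5.64 to 6.35), and Ins1 at 333 and 1801.7 CPM, 5.41-fold lower (4.78 to 6.14). Insulin below 5% is part of the rule, so the insulin values are a description. The median insulin share was 0.1355% in the IHG and 0.3327% in the control offspring cells. The means were 0.2165% and 0.9525%, and the highest values 2.477% and 4.798%. The summed counts behind these folds give the cells with most insulin more weight than the medians do. Ins2 was also lower in glucagon-only cells, at 1878.8 CPM in IHG and 5224.2 CPM in control offspring, and in somatostatin-only cells, at 2277.4 and 8098.1 CPM. The 3 higher genes were Ndufa4, a mitochondrial respiratory protein, at 82.9 CPM in IHG and 36 CPM in control offspring cells, Efhd2 at 75.8 and 37.4 CPM, and Rab24 at 71.1 and 34.6 CPM.

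Alpha, delta and granule genes had median ratios near 1 between the offspring groups. Of 9 alpha, 5 delta and 17 prohormone and granule genes at 50 CPM or more, 0 passed 2-fold, and their median log2 ratios were 0.04, 0.03 and 0.10, beside 0.106% and 4.05% of all genes past 2-fold upwards and downwards. Of 5 beta genes, Ins1, Ins2 and Nkx6-1 were at least 2-fold lower, with a list median of -1.58. Of 9 genes of the unfolded protein response at that level, Hspa5, the main chaperone of the endoplasmic reticulum, and Ppp1r15a were at least 2-fold lower. With 1 library on each side these differences cannot be told apart from differences between preparations.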

How the data were processed

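Single-cell count matrices of 4 islet libraries were analysed, 1 per group. Per the labels' protocols, islets were cultured, dissociated with trypsin and captured in microwells with 3′ barcoded beads. The submitters' processing notes name Cell Ranger, Seurat and mm10, without versions, roles or order. The deposited values are UMI counts per gene and barcode, not normalised by the authors. The members and gene lists were chosen with earlier results of these data known. Classes follow the limits given above. Counts were summed over the cells of a class and library, scaled to CPM, and compared as ratios among genes with 50 CPM or more, with exact conditional intervals, and a count of 0 was set to 3 UMIs per library. Genes named between classes were the 10 in each direction whose smallest fold over libraries was largest, and between groups the 10 whose interval bound nearest to 1 lay furthest from it. Scrublet was run through scanpy 1.11.5 at an expected rate of 0.06, and no cell was removed as a doublet. Gene ratios, their intervals and mixture weights were tested on simulated data. Python 3.11.15, numpy 2.4.6 and scipy 1.17.1 were used. Thinning drew 1500 UMIs per cell without replacement. Genes with near-identical copies, such as Hspa1a with Hspa1b and Ins1 with Ins2, may share reads. Some genes that met the naming rule are not reported here.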

Additional observations from a re-analysis of the deposited data

How the results depend on the processing

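No paired analysis was possible because each group has 1 library, and for the same reason no library could be left out of a group. Of 120 alternative values 69 lay within the counting or order-statistic interval of the value reported above (gene counts, within 1.5 times) and 51 did not, and the cause was not tested beyond what each setting itself changes. The Cre-positive share stayed above the Cre-negative one under every setting, and the IHG share below the control one under every setting except hormones at 10%. The share of kept cells, in the order Cre-positive, Cre-negative, IHG offspring and control offspring, became 7.36%, 0.219%, 0.712% and 1.36% with hormones at 1%, 3.43%, 0.0675%, 0.544% and 0.787% at 5%, and 0.605%, 0.0169%, 0.343% and 0.159% at 10%. In the Cre-positive library it was 4.77% with insulin below 1%, 6.12% below 10% and 6.01% with a higher minimum of detected genes. In the control offspring library it was 0.787% with insulin below 1%, 1.43% below 10% and 1.33% with mitochondrial UMIs at most 10%. Without Scrublet-marked cells it was 0.0179% in the Cre-negative and 0.449% in the IHG offspring library. Thinning to 1500 UMIs moved no share beyond its interval. The depth over glucagon-only cells was 1.86 at 10% in the Cre-positive library, and over somatostatin-only cells 2.60 at 10% and 2.5 without hormone and mitochondrial UMIs there, and 3.31 at 10% in the Cre-negative library. With 5 Cre-negative cells that interval is wide. Without Scrublet-marked cells 1 of them was left, at 0.212 and 0.246 times the single-hormone medians, and the Cre-negative pairing ratio was 0.0186, 0.0279 at 10% and 0.0392 among low-insulin cells. The pairing ratio was 1.39 and 0.428 in the Cre-positive and 2.13 and 0.586 in the control offspring library at 5% and 10%, 0.186 at 10% in the IHG offspring library and 0.215 there without Scrublet-marked cells. Among low-insulin cells it was 1.10, 0.121 and 0.530 in the Cre-positive, IHG offspring and control offspring libraries. Genes past 2-fold for Cre-positive over Cre-negative came to 516 up and 366 down with median-of-ratios scaling, 531 higher in CPM without hormone and mitochondrial genes, 588 and 1666 at 20 CPM, 588 and 10303 without a filter, 525 and 1344 at 1.5-fold, and 20 and 2682 without Scrublet-marked cells. For IHG over control offspring they were 11 higher with median-of-ratios scaling, 54 higher without hormone and mitochondrial genes, 67 and 356 at 20 CPM, 1906 and 1288 without a filter, 68 and 421 at 1.5-fold, 6 higher at 5% and 9 higher without Scrublet-marked cells. Depth limits the Cre-negative side most, since it holds 5 cells.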

Other observations

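Some genes departed from the sum of the single-hormone means, the haemoglobin genes among them through a small number of barcodes. In the Cre-positive library Hbb-bt, a haemoglobin gene of red blood cells, had 198 UMIs in 7 of the 528 cells rich in both hormones, of which 148 were in a single cell, and its mean was 5.33 times the sum. Hba-a2 had 262 UMIs in 15 cells, with 151 in a single cell, and Hba-a1 and Hbb-bs had 173 and 269 UMIs. Slc2a2, the glucose transporter of beta cells, had 59 UMIs in 40 Cre-positive cells, 2.10 times the sum. On the other side, Flt1, an endothelial receptor, was at 0.499 times the sum with 161 UMIs in 39 cells, and Sparc at 0.316 times with 86 UMIs in 31 cells. Npy, the neuropeptide Y gene, averaged 0.0739 UMIs in Cre-positive cells rich in both, against 0.354 in glucagon-only and 0.0658 in somatostatin-only cells, 0.176 times the sum. Its UMIs in glucagon-only cells came from 1.56% of those cells. In the control offspring library Npy averaged 0.0613 UMIs, 10 UMIs in all, against 0 and 0.00578.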
